A study of Mus musculus with 18 samples.

Results

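The simple epithelial keratins described here are 6 genes, chosen by symbol from the count tables: *Krt7* and *Krt8* of the type II class and *Krt18*, *Krt19*, *Krt20* and *Krt23* of the type I class. All 6 of the 6 were found among the 43346 rows of the raw counts, and all 6 passed the filter on low counts in 18 libraries. The libraries come from EPCAM+ crypt cells of untreated C57BL/6 mice that carry the allele that the labels spell Lgr5_eGFP_Iris_creERT2 (the line usually written Lgr5-eGFP-IRES-creERT2), aged 8 to 20 weeks by the labels, from the small intestine (SI) and the large intestine (LI). Cells were sorted by GFP, which in this line reports Lgr5, into high (centre of the crypt base), medium (border) and low (row >3, above the Lgr5+ zone), with 3 replicates in each of the 6 groups. Every group carries the same allele, so the levels are gates on 1 reporter rather than different genotypes, and the reporter is known for patchy expression among crypts. The cells with low GFP are therefore defined by position only through the reporter.

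Keratins are intermediate filament proteins that assemble as obligate pairs of a type I and a type II chain. Simple, single-layered epithelia build their filaments mainly from KRT8 with KRT18 or KRT19, anchor them to desmosomes through desmoplakin and to other structures through plectin, and use them to carry mechanical load. In the intestine KRT20 is known as a keratin of differentiated cells of the upper crypt and villus, whereas KRT7 and KRT23 are minor chains there. The comparison across the Lgr5 levels thus asks how keratin transcripts differ between the crypt base and the rows above it, and the comparison of sites asks whether the SI and LI do so alike.

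The genes lie in the 2 keratin clusters of the mouse genome (GRCm38, GENCODE M21). *Krt7* (ENSMUSG00000023039) is at chr15:101411043-101430313 on the plus strand, *Krt8* (ENSMUSG00000049382) at chr15:101996698-102004482 on the minus strand and *Krt18* (ENSMUSG00000023043) at chr15:102028180-102032027 on the plus strand. *Krt19* (ENSMUSG00000020911) is at chr11:100140810-100148665, *Krt20* (ENSMUSG00000035775) at chr11:99428403-99438150 and *Krt23* (ENSMUSG00000006777) at chr11:99477974-99493137, all on the minus strand. *Krt18* is thus a type I gene that sits beside the type II gene *Krt8*. *Krt8* shares 514 of its 1909 words of 50 bases with the pseudogene *Krt8-ps*, so part of its reads could have been split or dropped in counting. *Krt7* shares such words with 76 other genes and *Krt18* with 2, at most 21 and 5 words with any 1 gene. *Krt19*, *Krt20* and *Krt23* share none. *Krt7* overlaps the antisense gene *Gm671* over 1269 bases and *Krt8* the lincRNA gene *Gm36026* over 271 bases, neither of which was analysed here, and the strand used in counting is not given in the sources used here.

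The start regions of *Krt20* and *Krt8* are shown because these genes gave the largest difference between groups and the highest level. Both are on the minus strand of GRCm38.p6 (RefSeq), printed 5′ to 3′ from 250 bases before to 20 bases after the RefSeq start, with matches to TATAAA (sense strand) and CCACCC (either strand, read as GGGTGG on the other) in capitals. *Krt20* is at chr11:99438134-99438403 and *Krt8* at chr15:102004323-102004592.
Krt20: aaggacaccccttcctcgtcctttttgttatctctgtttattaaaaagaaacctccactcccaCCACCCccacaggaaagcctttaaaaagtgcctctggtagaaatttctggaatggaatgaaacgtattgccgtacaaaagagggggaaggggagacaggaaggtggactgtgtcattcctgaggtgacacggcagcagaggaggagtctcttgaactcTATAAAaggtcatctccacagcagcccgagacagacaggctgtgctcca
Krt8: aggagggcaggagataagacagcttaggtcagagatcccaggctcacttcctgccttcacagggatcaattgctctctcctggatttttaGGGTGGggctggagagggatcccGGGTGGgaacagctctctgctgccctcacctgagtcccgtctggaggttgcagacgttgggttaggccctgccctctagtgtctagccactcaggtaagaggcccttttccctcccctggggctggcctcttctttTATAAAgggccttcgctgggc
TATAAA starts 29 bases before the RefSeq start in *Krt20* (position -29) and at position -1 in *Krt8*, and CCACCC at position -187 in *Krt20* and at -160 and -137 in *Krt8*. Of 32851 mouse promoters of 300 bases, 8.32% hold TATAAA and 31.5% hold CCACCC, so the latter is common. Entries were found for 5 of the 6 keratins. Among the other 3, *Krt18* has CCACCC at position 4 and *Krt23* has TTTATG (either strand; 11.9% of promoters) at -32, while *Krt7* has none of these. TGANTCA (either strand; 7.81% of promoters) matched none of the 5. The motifs do not overlap each other, and a match describes letters only.

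Depth ranged from 8312093 to 31940965 counts per library (median 21934851.5), and the keratins were far above the counting limit, from 86 counts of *Krt23* to 91942 of *Krt8*. All 6 replicate 2 libraries carry counts of the Y-linked genes *Ddx3y* and *Eif2s3y* (542 to 1419), against at most 1 count in the other 12, so each group holds the same mix of both sexes. The SI replicate 3 libraries stand apart from the other SI libraries, and why they do was not tested. Their summed counts of the stem genes *Lgr5*, *Ascl2*, *Smoc2* and *Axin2* were the lowest of the SI replicates at each level. These sums were 11510, 2046 and 967.9 in the centre, border and row >3. The same libraries carry LI transcripts. *Car1*, a colonic carbonic anhydrase, had 1668, 22800 and 38980 normalised counts in these centre, border and row >3 libraries, against at most 214.8 in the other SI libraries. Genes at least 20-fold higher in the LI than in SI replicate 1 stood at a median of 60.7%, 84.95% and 79.26% of their LI level in SI replicate 3 of the centre (51 genes), border (45) and row >3 (33), against 1.752%, 1.623% and 1.153% in SI replicate 2. The main results are therefore given with all libraries and without these 3. The labels number the replicates without naming the mouse, so p-values measure the spread between these samples.

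*Krt8*, the main type II keratin of simple epithelia, was the most abundant of the keratins per kilobase of transcript in all 6 groups. In SI centre cells its normalised counts were 13930, 15350 and 25100 for replicates 1, 2 and 3, in border cells 32730, 23200 and 50490, and in row >3 cells 62880, 55930 and 50440. The SI row >3 libraries all lie above the SI centre libraries, and the border libraries are spread between and partly over both. In the LI its counts were 22140, 22750 and 23030 in the centre, 26770, 26960 and 29560 in the border, and 41460, 30300 and 37270 in row >3. The 3 LI levels did not overlap and covered a narrower range than those of the SI.

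*Krt7*, the other type II keratin, was low beside *Krt8*. Its SI counts were 2491, 2849 and 3196 in the centre, 3535, 3086 and 3291 in the border, and 5415, 6000 and 3853 in row >3. The LI counts were 3347, 3348 and 3220, then 3756, 3344 and 3097, then 5570, 3815 and 3905. At both sites row >3 was above centre in every library and the border overlapped the centre.

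*Krt18*, the type I chain that classically pairs with KRT8, was the least ordered of the abundant keratins. Its SI counts were 6347, 7315 and 13130 in the centre, 17590, 10050 and 10750 in the border, and 15810, 17790 and 9224 in row >3. SI replicate 3 was the highest of the 3 centre libraries and the lowest of the 3 row >3 libraries, so that these groups overlap through it alone. In the LI the counts were 10150, 10400 and 10290 in the centre, 13000, 11040 and 10990 in the border, and 13750, 10020 and 10910 in row >3, with row >3 overlapping the other levels.

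*Krt19*, the smallest keratin, which lacks the usual tail domain, followed *Krt8*. Its SI counts were 7372, 7763 and 11480 in the centre, 11590, 10860 and 26310 in the border, and 27620, 24330 and 30710 in row >3. In the LI they were 10960, 11660 and 12070, then 13460, 14000 and 15690, then 24490, 17280 and 21890. The 3 LI levels did not overlap, and row >3 lay above centre in every library at both sites.

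*Krt20*, the keratin of differentiated intestinal cells, had the widest range. Its SI counts were 835.4, 462.3 and 755.4 in the centre, 3145, 1649 and 5913 in the border, and 14970, 9301 and 7448 in row >3. The 3 SI levels did not overlap. In the LI the counts stayed between 231.1 and 917.6 in all 9 libraries, with 618.7, 408.2 and 444.1 in the centre, 231.1, 792.3 and 768.2 in the border, and 605.8, 663.5 and 917.6 in row >3. The LI levels overlapped, and SI replicate 3 of row >3, despite its LI transcripts, was above every LI library.

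*Krt23*, a little-studied type I keratin, had the lowest mean of the keratins in every group, though above *Krt20* (231.1) in LI border replicate 1. Its SI counts were 317.6, 387.7 and 540.9 in the centre, 743.8, 407 and 227.2 in the border, and 293.4, 390.2 and 134.3 in row >3. In the LI they were 214.1, 223 and 278.9, then 365.9, 224.6 and 276.2, then 216.8, 142.7 and 149.9. The SI levels overlapped, and in the LI only border and row >3 cells did not.

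**Figure D1:**
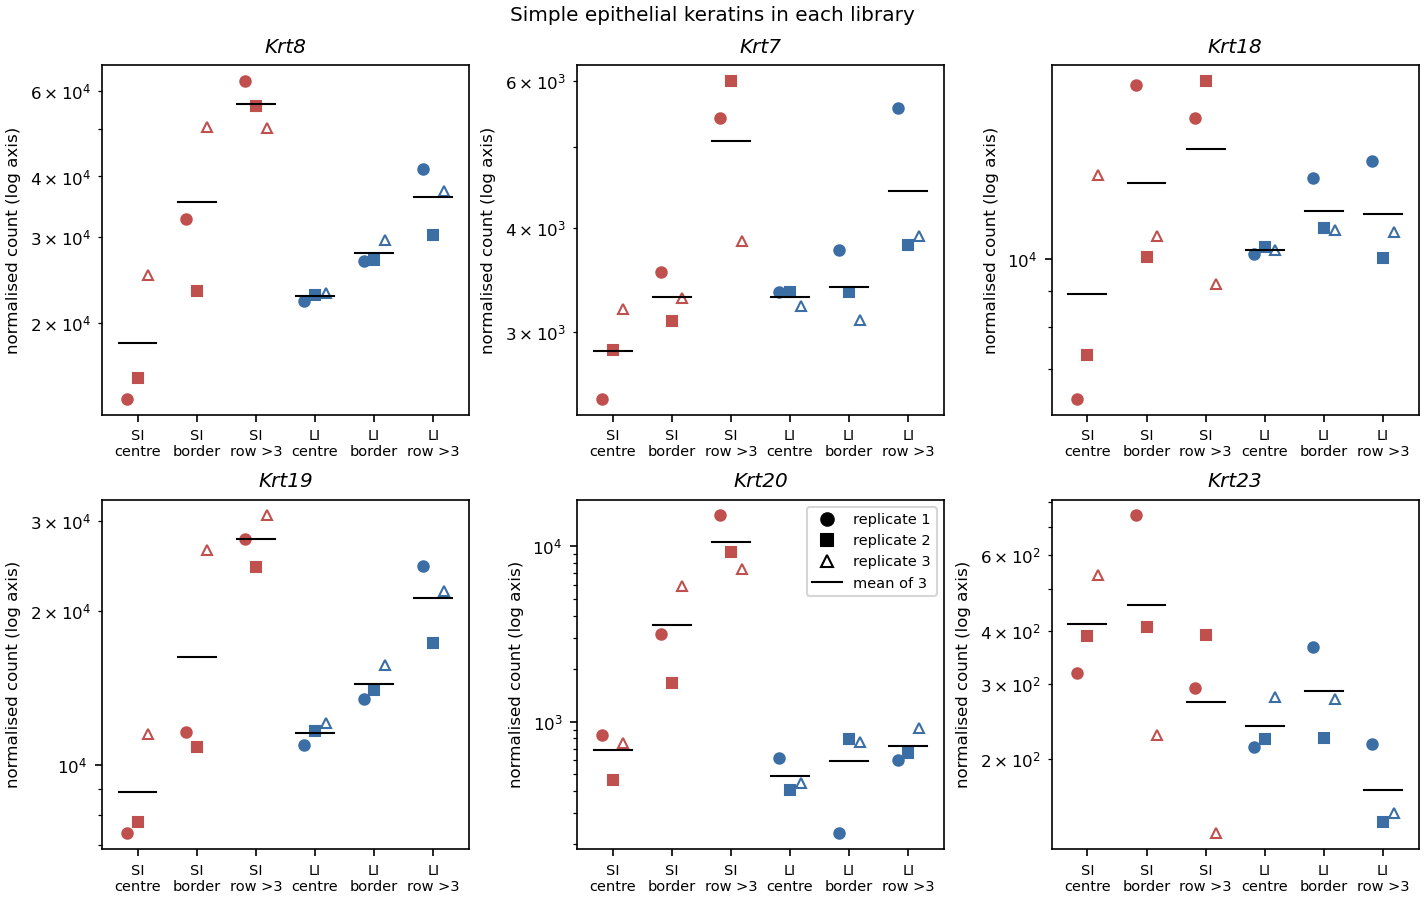
Normalised counts of the 6 keratins (log axis, a different range in each panel) in the 6 groups, SI in red and LI in blue, with replicates 1, 2 and 3 as circles, squares and open triangles and the mean of 3 as a line. *Krt20* reached 7448 to 14970 in SI row >3 cells and at most 917.6 in any LI library, while SI replicate 3 often lies apart from the other SI libraries.

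In the SI, 4 of the 6 keratins were higher in row >3 than in centre cells. *Krt20* rose 15.4-fold, from 684.4 ± 196.4 to 10570 ± 3918 normalised counts (mean ± SD, n = 3), with a log2 fold change of 3.95 ± 0.56 (SE, edgeR adjusted p = 5.38e-04). *Krt8* rose 3.11-fold, from 18130 ± 6081 to 56420 ± 6236 (log2 fold change 1.64 ± 0.25, adjusted p = 3.75e-04). *Krt19* also rose 3.11-fold, from 8873 ± 2270 to 27560 ± 3190 (1.64 ± 0.29, adjusted p = 0.00141). *Krt7* rose 1.79-fold, from 2845 ± 352.5 to 5089 ± 1110 (0.84 ± 0.17, adjusted p = 0.00155). *Krt18* did not pass the test (0.67 ± 0.26, adjusted p = 0.115), and neither did *Krt23* (-0.59 ± 0.36, adjusted p = 0.362). Of all 26717 genes tested, 13.2% were called in this comparison, 1964 higher and 1554 lower, and the median log2 fold change was 1.24 over the 6 keratins and 0 over all genes. *Krt20* is among the genes that the study itself labelled in plots of these libraries, so its direction is not independent evidence.

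Without SI replicate 3, 5 of the 6 were higher, against 17.1% of all genes called. *Krt18* then rose 2.47-fold (log2 fold change 1.30 ± 0.19, adjusted p = 3.46e-05). *Krt8* rose 4.07-fold, *Krt19* 3.44-fold, *Krt7* 2.15-fold and *Krt20* 18.7-fold (adjusted p from 1.09e-08 to 8.03e-04), and *Krt23* stood at -0.04 ± 0.28 (adjusted p = 1). Leaving out only the SI centre or only the SI row >3 library of replicate 3 was enough for *Krt18* to be called (1.06, adjusted p = 0.00416, with 14.3% of all genes called, and 0.92, adjusted p = 0.0240, with 10.8%).

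Cell type markers moved with the keratins in the same libraries. The stem cell genes *Lgr5*, which the sort sets, *Ascl2* and *Axin2* fell in SI row >3 cells (-4.58, -3.68 and -2.44, adjusted p from 5.01e-05 to 0.0155), and the summed count of the 4 stem markers was 11510 to 24010 in SI centre and 967.9 to 4679 in SI row >3 libraries, and 7111 to 8330 and 1614 to 2253 in the LI. Of the 4 goblet markers 3 rose in SI row >3 cells (*Muc2* 2.81, *Fcgbp* 4.14, *Spdef* 2.69) and *Clca1* fell by 2.04, and their sum was 12310 to 193800 in SI centre and 585800 to 964100 in SI row >3 libraries, against 119800 to 190100 and 266800 to 440800 in the LI. Of the 4 SI absorptive markers 3 rose there (*Fabp1* 2.197, *Alpi* 2.79, *Sis* 3.70), with a sum of 2296 to 2600 in SI centre and 3140 to 12170 in SI row >3 libraries. The 4 tuft markers summed, in replicates 1, 2 and 3, to 528.3, 684.2 and 7695 for SI centre cells but to 6418, 6998 and 1613 for SI row >3 cells. The part of these cell types in the keratin differences was not tested, and in these bulk samples more cells of a type and more keratin RNA per cell cannot be told apart. The Paneth markers summed to 20560 to 90180 in SI centre and 2827 to 53050 in SI row >3 libraries, and to at most 244.2 in the LI, and the enteroendocrine markers to 58.75 to 5017 and 764.9 to 9225 in the same SI groups. When SI replicate 3 was left out, all 4 stem markers fell in SI row >3 cells, 3 goblet, 3 SI absorptive and 4 tuft markers rose, and *Clca1* fell. The median log2 fold change over the 4 goblet markers was 4.77 in that fit and 2.75 with all libraries. Over the 4 tuft markers it was 3.46 and 0.80. Of the 4 LI absorptive markers *Car1* (5.43) and *Car4* (4.81) then rose as well, and of the 3 enteroendocrine markers *Neurod1* (2.27). Of the 4 Paneth markers only *Mmp7* was called, and it was higher (1.31). The median log2 fold change over the 4 Paneth markers was -0.15 in that fit. The LI absorptive markers summed to 5754 to 8047 in LI centre and 19320 to 31070 in LI row >3 libraries.

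At the SI border the means of 5 of the 6 keratins, all but *Krt23*, lay between centre and row >3, but with all libraries 0 of the 6 were called, against 0.0112% of all genes (3 genes, with 2399 at an unadjusted p under 0.05). These border means include replicate 3, where *Lgr5* stood at 156.7 normalised counts, against 1610 and 2028 in replicates 1 and 2. SI row >3 libraries had 28.1 to 279.6. The log2 fold changes over centre were 2.39 ± 0.52 for *Krt20* (adjusted p = 0.183), 0.97 ± 0.24 for *Krt8* (0.203), 0.88 ± 0.28 for *Krt19* (0.339), 0.50 ± 0.26 for *Krt18* (0.620), 0.21 ± 0.16 for *Krt7* (0.815) and 0.09 ± 0.36 for *Krt23* (1). DESeq2 called 2 of them, *Krt20* (adjusted p = 1.99e-04) and *Krt8* (0.0243), against 1.25% of the genes it tested. A replicate block inside each site let edgeR call *Krt19* alone among the keratins (0.79, adjusted p = 0.0339), against 2.32% of all genes. Without SI replicate 3, *Krt8* (0.90 ± 0.15, adjusted p = 0.00225) and *Krt18* (0.98 ± 0.19, adjusted p = 0.00957) were higher at the border, against 0.963% of all genes called, and the others were not called (1.84 ± 0.57 for *Krt20*, 0.64 ± 0.29 for *Krt23*, 0.54 ± 0.15 for *Krt19* and 0.28 ± 0.17 for *Krt7*, adjusted p from 0.115 to 0.877). Thus *Krt8* and *Krt18* were about 1.87-fold and 1.98-fold above centre in the fit without SI replicate 3, and which keratins passed depended on the fit. With only SI border replicate 2 left out, *Krt8* (1.20, adjusted p = 0.0168) and *Krt20* (2.73, 0.0279) were called, against 0.646% of all genes, and with only SI centre replicate 3 left out *Krt8* was (1.26, 0.00523), against 1.21%. Leaving out only SI border replicate 3 lowered the values of *Krt8* to 0.59 (adjusted p = 0.894) and of *Krt20* to 1.76 (0.735). *Krt19* then stood at 0.30, and none of these passed. With the block and without SI replicate 3 together, *Krt8*, *Krt18* and *Krt19* were called, against 2.29% of all genes. Cell type markers moved in the same libraries. *Fabp1* was higher at the SI border with all libraries (3.36, adjusted p = 0.0164), where the other 3 SI absorptive markers were not called. In the fit without SI replicate 3, all 4 tuft markers (*Trpm5* 4.59, *Dclk1* 4.56, *Avil* 3.80 and *Pou2f3* 2.51) and 3 of the 4 goblet markers (*Fcgbp* 3.46, *Spdef* 2.71 and *Muc2* 2.66) were higher as well. The tuft sums at the border were 16960, 5359 and 8050 in replicates 1, 2 and 3 and the goblet sums 163700, 76750 and 246500. In replicates 1 and 2 both sums were above those of the centre (528.3 and 684.2 for tuft, 12310 and 20920 for goblet). In replicates 1, 2 and 3 the border sums of the 4 stem markers were 13900, 16770 and 2046. The sum of replicate 3 lay in the range of the SI row >3 libraries (967.9 to 4679). Its LI absorptive markers summed to 29920, against 214.9 and 417.3 in replicates 1 and 2. That library had the highest SI border counts of *Krt8* (50490), *Krt19* (26310) and *Krt20* (5913). The part of these cell types in the keratin values at the border was not tested.

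In the LI the fold changes of row >3 over centre had the same signs as in the SI. The log2 fold changes were 0.88 ± 0.28 for *Krt19*, 0.68 ± 0.24 for *Krt8*, 0.58 ± 0.51 for *Krt20*, 0.42 ± 0.16 for *Krt7*, 0.17 ± 0.26 for *Krt18* and -0.50 ± 0.37 for *Krt23* (adjusted p from 0.505 to 0.969). With all libraries 0 of the 6 were called, against 0.0187% of all genes, where 1859 genes had a p under 0.05 before adjustment. DESeq2 called none of the 6 either. Without SI replicate 3, which enters this comparison only through the filter, the scaling and the shared spread, *Krt19* (0.87 ± 0.12, adjusted p = 4.61e-04) and *Krt8* (0.67 ± 0.13, adjusted p = 0.00479) were higher in LI row >3 cells, against 1.9% of all genes called. *Krt19* was also called with the replicate block (adjusted p = 0.0190), where 2.59% of all genes were called, and both genes when only the 2 LI groups were fitted (adjusted p = 0.0115 and 0.0346), where 1.03% were. The block without SI replicate 3 called *Krt7* (0.39, adjusted p = 0.0279) beside these genes, with 6.78% of all genes called. In the fit without SI replicate 3 and with no block, all 4 stem markers were lower in LI row >3 cells (*Lgr5* -3.02, *Smoc2* -2.58, *Ascl2* -2.23 and *Axin2* -1.34). *Car1* was higher (2.55), and no tuft or SI absorptive marker was called. Of the goblet markers *Clca1* was lower (-1.29) and the others were not called, although their row >3 means were above those of the centre. Centre and row >3 means were 112000 and 218300 for *Muc2*, 38500 and 149300 for *Fcgbp*, and 868.7 and 1651 for *Spdef*. The mean of *Krt19* went from 11560 ± 562.8 to 21220 ± 3649 and that of *Krt8* from 22640 ± 455.9 to 36340 ± 5638.

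At the LI border no keratin was called with all libraries, where 0% of all genes were (368 genes at an unadjusted p under 0.05), nor without SI replicate 3, where 0.00382% were, nor with DESeq2. The largest log2 fold change over centre was 0.31 ± 0.28 for *Krt19* and the smallest 0.04 ± 0.16 for *Krt7*. For *Krt8* and *Krt19*, whose 3 border libraries were all above their 3 centre libraries, the values were 0.29 ± 0.24 and 0.31 ± 0.28.

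**Figure D2:**
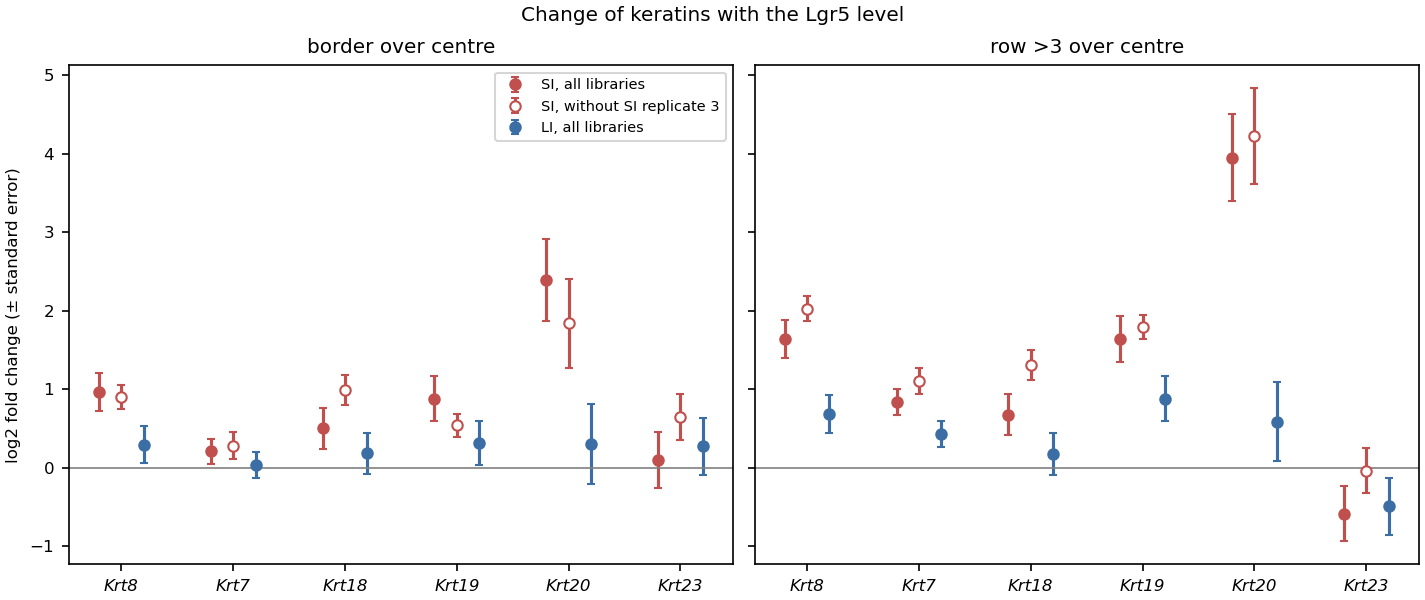
Log2 fold changes of the keratins over centre cells (points, with standard errors as bars) at the border and in row >3, for the SI with all libraries (filled red), the SI without replicate 3 (open red) and the LI (blue). In SI row >3 cells *Krt20* stands at 3.95 and *Krt8* and *Krt19* at 1.64, and *Krt18* moves from 0.67 to 1.30 when replicate 3 is left out.

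Between the sites, *Krt20* alone was called with all libraries, at 2 of the 3 levels. In row >3 cells it was 13.9-fold higher in the SI than in the LI (10570 ± 3918 against 729 ± 165.9, log2 fold change 3.80 ± 0.55, adjusted p = 0.00160), where 4.09% of all genes were called. In border cells it was 5.75-fold higher (3569 ± 2164 against 597.2 ± 317.3, 2.52 ± 0.53, adjusted p = 0.0304), where 1.75% were called. This border call was lost in 5 of 6 fits that left out 1 of the 6 border libraries, each but SI replicate 2 (1.90 to 2.77, adjusted p from 0.0548 to 0.0933; 1.29% of all genes were called in the fit that kept it), and with only the 2 border groups fitted (adjusted p = 0.269). In centre cells it did not pass the test (684.4 ± 196.4 against 490.3 ± 112.6, 0.43 ± 0.51, adjusted p = 0.794). Without SI replicate 3 the values were 4.05 ± 0.51 (adjusted p = 4.31e-04) for row >3, 1.95 ± 0.51 (0.0450) for the border and 0.40 ± 0.52 (0.813) for the centre. With all libraries, 3 of the 4 SI absorptive markers were higher in the SI at the same levels as *Krt20*, in row >3 cells (*Sis* 7.13, *Fabp1* 6.13 and *Alpi* 3.85) and in border cells (*Sis* 5.33, *Fabp1* 4.44 and *Alpi* 3.83), and 0 of the 4 in centre cells. Their sum was 3140 to 12170 in SI row >3 and 2876 to 6173 in SI border libraries, against 1560 to 2143 and 1571 to 2042 in the LI. The Paneth markers *Lyz1*, *Mmp7* and *Itln1* were higher in the SI at all 3 levels. How far these cells bear on *Krt20* was not tested.

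Once SI replicate 3 was left out, *Krt8* and *Krt18* were lower in the SI than in the LI in centre cells and higher in row >3 cells. In centre cells *Krt19* was lower as well, and the log2 fold changes were -0.65 ± 0.14 for *Krt8* (adjusted p = 0.00295), -0.61 ± 0.18 for *Krt18* (0.0253) and -0.63 ± 0.14 for *Krt19* (0.00291), with 10.9% of all genes called. With all libraries, where 1.99% of genes were called, the same values were -0.37 ± 0.24, -0.26 ± 0.26 and -0.44 ± 0.28 and none passed (adjusted p from 0.543 to 0.762). In row >3 cells without SI replicate 3, *Krt8* (0.70 ± 0.14, adjusted p = 8.44e-04) and *Krt18* (0.53 ± 0.17, 0.0414) were higher in the SI, with 12.2% of all genes called, and *Krt19* was not called (0.29 ± 0.13, 0.211). *Krt7* was not called between the sites at any level in either fit (-0.33 to 0.36). Cell type markers differed between the sites in the same fit. All 4 LI absorptive markers were lower in the SI at each level, with median log2 fold changes of -8.28 (centre), -7.57 (border) and -4.47 (row >3), and *Sis* (7.34), *Fabp1* (6.16) and *Alpi* (3.79) of the SI absorptive markers were higher in SI row >3 cells. In centre cells *Dclk1* (-3.34), *Trpm5* (-2.44) and *Avil* (-1.48) of the tuft and *Fcgbp* (-3.31), *Muc2* (-3.30) and *Spdef* (-3.25) of the goblet markers were lower in the SI, and *Clca1* was higher (1.37). In row >3 cells 3 of the 4 tuft markers were higher in the SI (*Trpm5* 1.99, *Avil* 1.92 and *Pou2f3* 1.41) and 0 of the 4 goblet markers were called. Of the 4 stem markers *Axin2* and *Smoc2* were higher in the SI at all 3 levels, and *Lgr5* and *Ascl2* were called at no level. In row >3 cells *Ascl2* stood at 25.31 and 32.38 in SI replicates 1 and 2, against 43.72, 81.99 and 60.36 in the LI. The part of any of these cells in the keratin values was not tested.

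*Krt23* was not called at the border or in row >3 over centre cells at either site, and row >3 was not tested against the border. Its SI over LI log2 fold changes with all libraries were 0.74 ± 0.36 for the centre, 0.56 ± 0.36 for the border and 0.65 ± 0.36 for row >3, none of them called (adjusted p from 0.349 to 0.556). Without SI replicate 3 it was called in border (0.91 ± 0.27, adjusted p = 0.0370, where 8.1% of all genes were called) and in row >3 cells (1.01 ± 0.27, adjusted p = 0.0133). In border cells of that fit, 3 of the 4 tuft, 2 of the 4 SI absorptive and 1 of the 4 goblet markers were higher in the SI. So were 3 of the 4 Paneth markers, and the part of these cells in the *Krt23* values was not tested. At this low level the 9 SI libraries ranged from 134.3 to 743.8 and the 9 LI libraries from 142.7 to 365.9.

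Whether the change from centre to row >3 differed between the sites was tested as an interaction. *Krt20* had the largest difference, 3.36 ± 0.73 on the log2 scale (edgeR adjusted p = 0.186), and 0 of the 6 keratins passed with all libraries, where 0% of all genes were called and 1800 had an unadjusted p under 0.05. DESeq2 called *Krt20* (adjusted p = 2.69e-04), with 1.1% of the genes it tested, as did edgeR on the 4 groups alone (0.0214), with 0.0155% of genes called. With only SI centre replicate 3 left out *Krt8* was called (1.25, adjusted p = 0.0424), against 0.875% of all genes. Without SI replicate 3, 4 of the 6 were called, against 3.27% of all genes, each with the larger log2 change in the SI. These were *Krt20* (3.65 ± 0.74, adjusted p = 0.0266), *Krt8* (1.35 ± 0.20, 2.19e-04), *Krt18* (1.14 ± 0.24, 0.00806) and *Krt19* (0.92 ± 0.19, 0.00640). The corresponding values with all libraries were 0.95 ± 0.34 for *Krt8*, 0.50 ± 0.37 for *Krt18* and 0.76 ± 0.40 for *Krt19* (adjusted p from 0.523 to 0.977). *Krt7* (0.42 ± 0.23 with all libraries and 0.69 ± 0.22 without SI replicate 3) and *Krt23* (-0.09 ± 0.51 and 0.47 ± 0.38) passed in neither fit. With the replicate block and without SI replicate 3 together, *Krt7* was called too (0.71, adjusted p = 0.0106), which made 5 of the 6, against 7.63% of all genes. Without the block, the same interaction called all 4 tuft markers (*Trpm5* 4.43, *Dclk1* 4.31, *Avil* 3.40 and *Pou2f3* 2.13), 3 of the 4 goblet markers (*Fcgbp* 4.72, *Muc2* 4.20 and *Spdef* 3.48), *Fabp1* (5.17), *Car4* (5.31) and *Ptprc* (3.41), each with the larger log2 change in the SI, and *Axin2* (-0.98). Their part in the keratin interaction was not tested.

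Because the chains pair, the levels were also compared per kilobase of the principal transcript, a scale on which genes of different length can be set side by side. In SI centre cells the order was *Krt8* (9259 ± 3105), *Krt18* (6214 ± 2552), *Krt19* (5630 ± 1440), *Krt7* (695 ± 86.1), *Krt20* (355.1 ± 101.9) and *Krt23* (265.4 ± 73.0). The first 3 overlap each other in range, as do *Krt20* and *Krt23*. In SI row >3 cells the order was *Krt8* (28810 ± 3185), *Krt19* (17480 ± 2024), *Krt18* (9934 ± 3122), *Krt20* (5487 ± 2033), *Krt7* (1243 ± 271.2) and *Krt23* (174.2 ± 82.6), and only *Krt18* and *Krt20* overlap. *Krt20* thus stood below *Krt7* in SI centre cells and above it in SI row >3 cells. At the SI border *Krt20* (1852 ± 1123) and *Krt7* (807 ± 54.9) overlapped in range. In LI centre cells *Krt8* (11560 ± 232.9) came first, followed by *Krt19* (7336 ± 357.1) and *Krt18* (7153 ± 90.3), which overlap, and in LI row >3 cells *Krt8* (18560 ± 2880) and *Krt19* (13470 ± 2316) overlap in turn and *Krt18* (8045 ± 1358) lies below both. In LI cells *Krt7* stayed above *Krt20*, with 807.3 ± 17.98 against 254.5 ± 58.4 in the centre and 1082 ± 241.4 against 378.3 ± 86.1 in row >3.

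Summed per kilobase, the 4 type I keratins ranged from 9731 in an SI centre library to 36480 in an SI row >3 library, and the 2 type II keratins from 7725 to 33440 in the same libraries. The ratio of type II to type I nevertheless stayed between 0.793 and 0.971 in all 18 libraries. It was 0.800 ± 0.011 in SI centre, 0.874 ± 0.085 in SI border and 0.908 ± 0.012 in SI row >3 cells, and 0.831 ± 0.007, 0.846 ± 0.030 and 0.894 ± 0.012 in the LI. At both sites the 3 row >3 libraries lay above the 3 centre libraries. These are transcripts per length, not protein, and no test was made. The 6 keratins together took 0.174% to 0.244% of all counts in SI centre and 0.414% to 0.581% in SI row >3 libraries, and 0.253% to 0.259% and 0.310% to 0.409% in the LI.

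The make-up of the type I class is given as shares, with no test. *Krt18* made up 49.0 ± 4.0% of type I transcripts per kilobase in SI centre and 29.8 ± 8.1% in SI row >3 cells, and 48.0 ± 0.9% and 36.6 ± 1.9% in the LI. *Krt20* went from 3.01 ± 1.25% through 8.14 ± 2.80% at the border to 16.3 ± 4.4% in the SI, while in the LI it was 1.72 ± 0.44%, 1.75 ± 0.95% and 1.75 ± 0.48%. *Krt19* went from 49.2 ± 1.1% to 61.2 ± 1.7% in the LI and from 45.8 ± 3.0% to 53.4 ± 10.3% in the SI, where replicate 3 was at 65.3% and the other row >3 libraries at 48.0% and 46.9%. From centre to row >3, the share of *Krt19* was thus higher and that of *Krt20* alike in the LI, whereas in SI replicates 1 and 2 the share of *Krt19* was alike (48.1% and 46.9% in the centre) and that of *Krt20* higher (4.46% and 2.28% against 21.3% and 14.7%). In SI replicate 3 both were higher. The ratio of *Krt8* to its classical partner *Krt18*, per kilobase, was 1.52 ± 0.11 in SI centre, 2.17 ± 1.12 in border and 3.08 ± 0.86 in row >3 cells, and 1.62 ± 0.02, 1.76 ± 0.23 and 2.31 ± 0.17 in the LI. In SI row >3 cells it was 2.92 and 2.31 in replicates 1 and 2 and 4.01 in replicate 3.

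**Figure D3:**
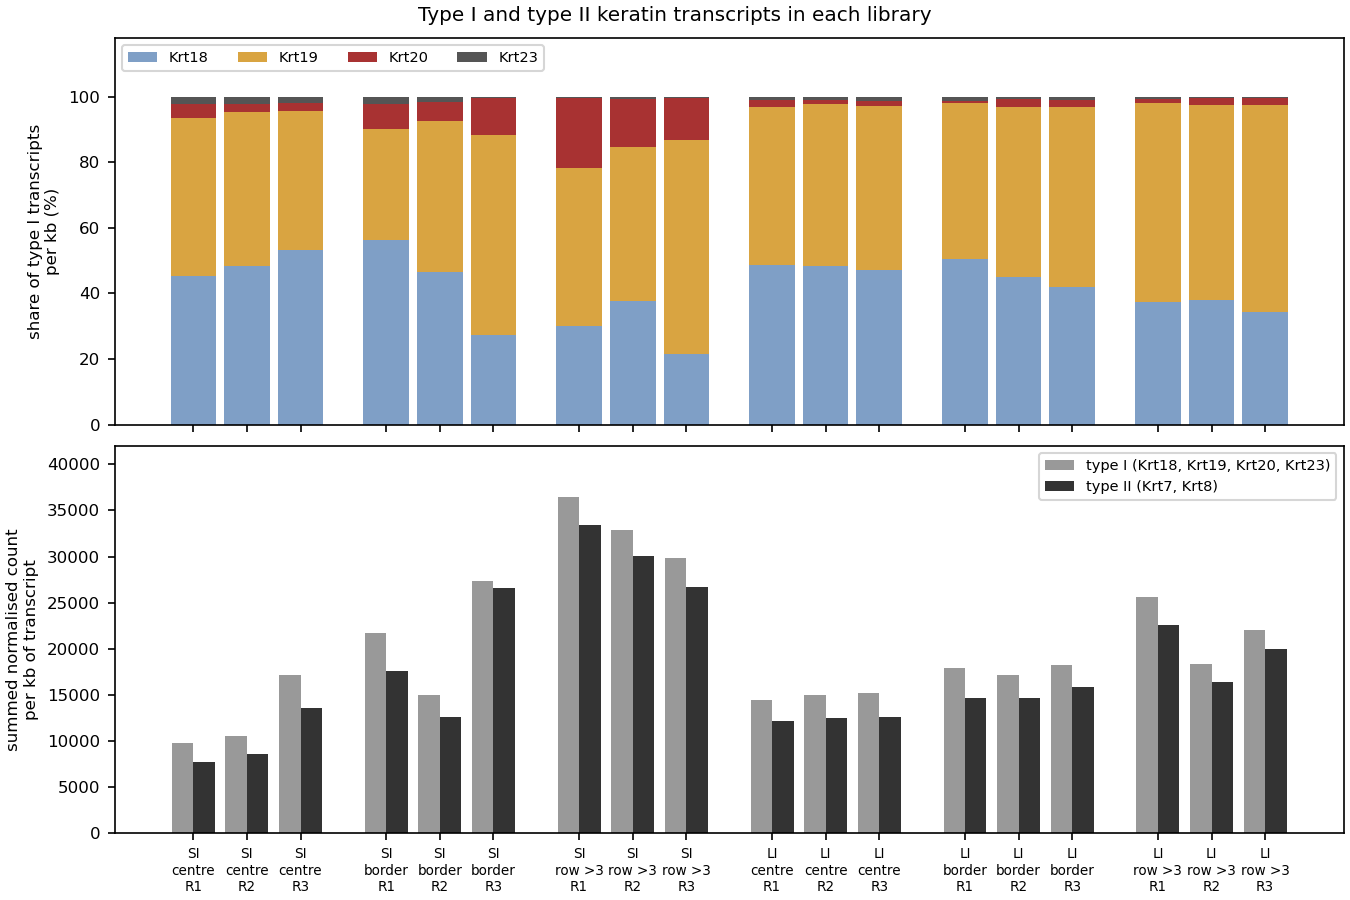
Top, share of each type I keratin among type I transcripts per kilobase (%) in each of the 18 libraries. Bottom, summed normalised counts per kilobase of the type I (grey) and type II (black) keratins, where the black bar is between 0.793 and 0.971 of the grey bar in every library, and *Krt20* (dark red, top) is widest in SI row >3 cells.

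Across the 18 libraries, *Krt8* and *Krt19* had the closest pattern of any pair of keratins (Pearson r of log2 CPM 0.956, 0.965 in the 9 SI and 0.996 in the 9 LI libraries). *Krt8* and *Krt18*, the classical partners, were less alike (0.678, and 0.874 without SI replicate 3). *Krt20* followed *Krt8* in the SI (0.952) and less in the LI (0.451), and *Krt23* followed none of the others (-0.527 to 0.298). These correlations describe libraries that share sites and levels and carry no test. For the genes named next, r was 0.869 to 0.982 without SI replicate 3. Among 8694 genes with a mean of at least 10 CPM, the 3 most like *Krt20* were *Vil1*, which encodes the microvillus protein villin (0.948), *Cndp2*, a cytosolic dipeptidase (0.945), and *Misp* (0.945). The 3 most like *Krt19* were *Ahnak* (0.973), the transcription factor *Klf4* (0.969) and the kinase *Ick* (0.966). For *Krt8* they were *Atp6v0a2*, a subunit of the vacuolar proton pump (0.980), the actin-severing protein *Scin* (0.978) and *Fam3b* (0.976). *Krt7* was most like *Cracr2b* (0.953), hexokinase 2, *Hk2* (0.944), and *Gnb2* (0.943), *Krt18* like *Dpysl2* (0.876), the actin-associated *Palld* (0.873) and *Fyb* (0.856), and *Krt23* was like *Aebp2* (0.903) and *Ccdc137* (0.853).

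Of 14 genes for desmosome proteins, plakins and keratin-binding proteins, 13 had a row. In SI row >3 over centre, 5 were higher, 1 was lower and 7 did not pass, where 13.2% of all genes were called, with a median log2 fold change of 0.35 against 0 for all genes. *Plec*, which encodes the linker plectin, rose from 12190 ± 3151 to 38760 ± 3079 normalised counts (1.67 ± 0.28, adjusted p = 8.33e-04), a value close to those of *Krt8* and *Krt19*. Its 3 row >3 libraries (41560, 35460 and 39270) all lay above its border and centre libraries. The envelope plakin *Evpl* (1.09 ± 0.32, adjusted p = 0.0326), the plakophilins *Pkp3* (0.91 ± 0.18, 0.00179) and *Pkp2* (0.52 ± 0.16, 0.0308) and the desmosomal cadherin *Dsg2* (0.73 ± 0.15, 0.00243) rose too. *Fbf1* fell by 0.81 ± 0.23 (adjusted p = 0.0209), and without SI replicate 3 it was not called (-0.68, 0.0784). *Dsp*, the desmoplakin gene, which with *Plec* had the most counts of the 13, stood at 0.35 ± 0.12 (adjusted p = 0.0678) and was called without SI replicate 3 (0.50, 0.0136), when 6 were higher and 0 lower and 17.1% of all genes were called. The 5 that rose with all libraries were then called too (*Plec* 1.90, *Evpl* 1.30, *Pkp3* 0.96, *Dsg2* 0.81 and *Pkp2* 0.63, adjusted p from 1.06e-04 to 0.0176). The replicate block added *Dsp* (adjusted p = 0.00637) and *Dsc2* (0.00147) to the calls, with 22.8% of all genes called, and DESeq2 added *Dsc2* (0.0493), with 24.2% of the genes it tested. In the edgeR fit of all groups, with or without SI replicate 3, none of the 13 was called at the SI border, at the LI border or in LI row >3 cells, where *Plec* stood at 0.66 ± 0.27 (adjusted p = 0.626). *Plec* was, however, called at the SI border by DESeq2 (adjusted p = 0.0414) and with the replicate block (0.00498), and in LI row >3 cells with the block (0.0283). Between the sites *Evpl* was higher in SI row >3 cells (1.28, adjusted p = 0.0333, with 4.09% of all genes called). Leaving out SI replicate 3, *Evpl* (1.39), *Plec* (0.79), *Dsp* (0.58), *Pkp4* (0.48) and *Dsg2* (0.46) were higher there, with 12.2% of all genes called, as were *Ppl* in centre (0.63, with 10.9%) and *Pkp4* in border cells (0.51, with 8.1%).

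**Figure D4:**
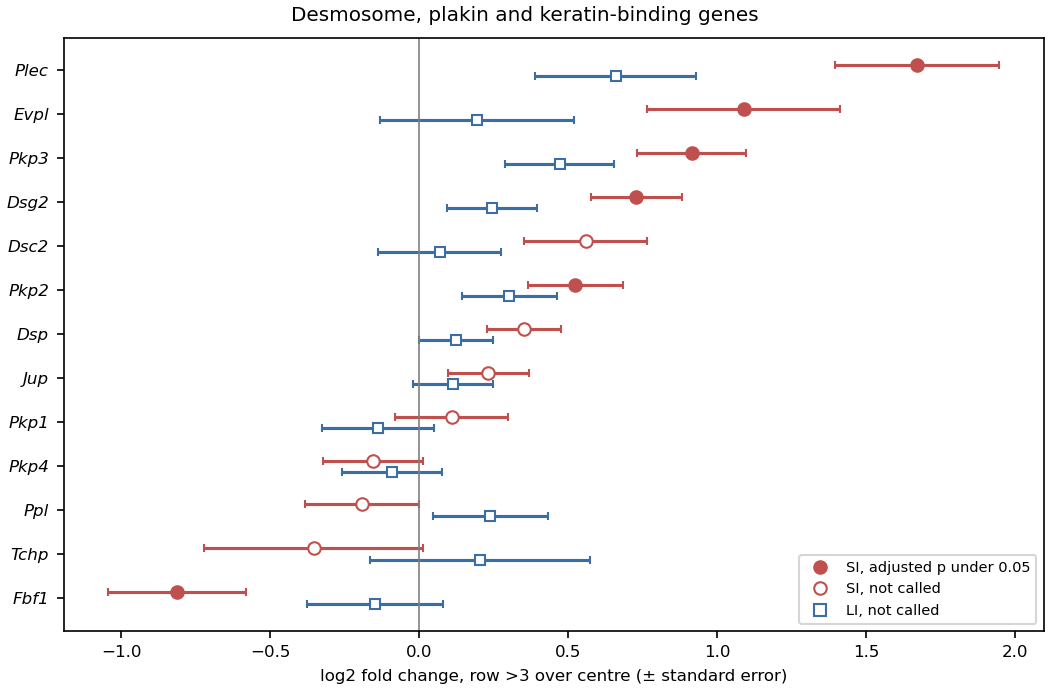
Log2 fold change of row >3 over centre cells (points, with standard errors as bars) for 13 desmosome, plakin and keratin-binding genes in the SI (red circles, filled where the adjusted p is under 0.05) and the LI (blue squares, none called). *Plec* has the highest value at both sites, 1.67 in the SI and 0.66 in the LI, and *Fbf1* the lowest, -0.81 and -0.15.

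Keratins of stratified epithelia gave the background for the class. Of 11 such genes, *Krt5*, *Krt6a* and *Krt16* had 0 counts in all 18 libraries, *Krt6b* and *Krt17* had 0 in 17, and the highest count of any of the 11 was 105, for *Krt15*. Their summed normalised count was 32.78 to 155.3 per library, and 0 of the 8 that could be tested were called in any comparison by the edgeR fit of all groups, with or without SI replicate 3. With the replicate block *Krt15* (-1.97, adjusted p = 0.00711) and *Krt4* (-2.38, 0.0497) were lower in SI row >3 cells. Among 7 other intermediate filament genes, the nuclear lamin gene *Lmna* rose in SI row >3 cells from 1603 ± 740.8 to 3540 ± 194.0 (1.14, adjusted p = 0.00541), and *Lmnb2* (-0.54, 0.0489) and *Nes* (-3.26, 0.0266, at 79 counts or fewer) fell. With SI replicate 3 left out, *Lmna* (1.61) and *Nes* (-3.29) stayed called, *Lmnb2* did not, and *Vim* (4.18) and *Lmnb1* (-0.58) were called as well. *Vim*, the mesenchymal filament gene, had at most 205 counts in any library.

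Markers of mesothelial and stromal cells were low, whereas some immune genes were present in every library. The 4 mesothelial genes, of a tissue that also makes simple keratins, summed to at most 21.88 normalised counts, with *Msln* at 0 counts in 17, *Wt1* in 17 and *Upk3b* in 16 of 18 libraries. The 4 stromal genes summed to at most 190.8 (*Dcn* at 0 in 16 and *Col3a1* in 13 libraries) and the 4 immune genes to at most 687.1, against a lowest sum of 37560 for the epithelial genes *Epcam*, *Cdh1*, *Vil1* and *Cdx2*. Among the immune genes *Cd3e* was at 0 in 10 libraries, but *Ptprc*, the pan-leukocyte CD45 gene, and *Cd68* were at 0 in none (highest counts 370 and 156). Normalised counts of *Ptprc* in replicates 1, 2 and 3 were 44.57, 21.18 and 255.5 in SI centre, 554.9, 203.5 and 389.2 in SI border and 199, 171.4 and 39.03 in SI row >3 libraries. With SI replicate 3 left out, *Ptprc* was higher at the SI border (3.39, adjusted p = 0.0182) and in SI row >3 cells (2.47, 0.0139). *Cd79a*, at 28 counts or fewer in any library, was lower in SI row >3 cells (-7.23, 0.0331). Its counts there were 0, so the fitted value does not measure the size of the change. Whether *Ptprc* came from immune cells was not tested. In replicates 1, 2 and 3 the tuft markers summed to 528.3, 684.2 and 7695 in SI centre libraries. They summed to 16960, 5359 and 8050 in SI border and to 6418, 6998 and 1613 in SI row >3 libraries. The part of immune cells in the keratin differences was not tested. The libraries carry the epithelial markers that the EPCAM+ sort selects. *Vil1* rose in SI row >3 cells (1.19, adjusted p = 8.16e-05) and *Cdh1* by less (0.44, 0.00744).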

How the data were processed

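RNA was measured in 18 libraries of sorted EPCAM+ cells (6 groups of 3). Reads were trimmed, aligned with STAR to mm10 and counted by the authors, who deposited raw counts per gene, and a second deposited table of signal holds these counts divided by 1 DESeq2 size factor per library, called normalised counts in the text. Within each library the ratio of the 2 tables varied by at most a relative 9.77e-15. The keratins and the other lists were chosen with earlier results of these data known. From the lists, genes called in at least 1 comparison and up to 4 with the highest level were named, not each of them in every comparison.

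Raw counts were tested with edgeR 4.0.16 in R 4.3.3 (quasi-likelihood, robust, TMM factors, mean count above 0, 26717 genes, 1 fit of 6 groups, 12 residual degrees of freedom). Calls were made where the p adjusted by Benjamini-Hochberg was under 0.05. The authors' own tool, DESeq2 (here 1.42.0), other filters and scalings, the compared groups alone, left-out libraries and a replicate block were alternatives. Fits without SI replicate 3 drop those 3 libraries. Per-kilobase levels divide by the principal GENCODE M21 transcript. Correlations used log2 CPM with a prior count of 2. One gene among those most like a keratin is not reported here. Same-numbered libraries deviated together within the SI (9 pairs, r 0.394 to 0.806) and the LI (9 pairs, 0.470 to 0.732), and between sites at the border (0.219 to 0.311) but not at each centre or row >3 pair (lowest 0.0738 and -0.00764), over 8694 genes. The replicate number was therefore a block within each site for the levels and for the interaction, and over all libraries for the sites, where it changed no keratin's call. The depth of 8312093 to 31940965 counts gave every keratin at least 86 counts in each library.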

Additional observations from a re-analysis of the deposited data

How the results depend on the processing

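*Krt7*, *Krt8*, *Krt19* and *Krt20* kept their call in SI row >3 over centre cells, and *Krt20* in SI over LI row >3 cells, under all 16 and 15 alternatives (log2 fold changes 0.68 to 1.10, 1.48 to 2.03, 1.46 to 1.86, 3.62 to 4.25 and 3.47 to 4.05). The number of keratins called at the SI border over centre, 0 of 6, was 2 with DESeq2, 1 with the replicate block, 2 without SI replicate 3, and 0 to 2 with 1 library left out (2 without SI border replicate 2, 1 without SI centre replicate 3). In LI row >3 over centre, 0 became 2 with the groups compared alone, 1 with the replicate block and 2 without SI replicate 3. For SI over LI, 0 in centre cells became 3 without SI replicate 3, 1 in border cells became 0 with the groups compared alone, 2 without SI replicate 3 and 0 to 1 with 1 library left out, and 1 in row >3 cells became 4 without SI replicate 3. The interaction, 0, gave 1 with DESeq2, 1 with the groups compared alone, 4 without SI replicate 3 and 0 to 1 with 1 library left out (*Krt8* without SI centre replicate 3). The cause was not tested, except that fits on fewer samples have their own estimate of the spread.

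Direction turned only for values of at most 0.30 that passed no test with all libraries. *Krt23* at the SI border over centre was -0.0184 with the replicate block and -0.39 to 0.42 with 1 library left out, and *Krt7* at the LI border over centre was -0.0229 to 0.0815 with 1 library left out. For SI over LI border cells, *Krt8* was -0.0334 without SI replicate 3 and -0.0797 to 0.53 with 1 library left out, *Krt19* -0.40 and -0.45 to 0.35, and *Krt18* -0.20 to 0.21 with 1 library left out. The interaction of *Krt23* was 0.47 without SI replicate 3, 0.49 with the replicate block as well, and -0.42 to 0.22 with 1 library left out. The other 724 single-gene values stayed on their side of the threshold, 42 passed it and 6 lost it. The legacy edgeR fit, chosen after seeing the data, changed no keratin's call.

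Over all genes, the calls at the SI border rose from 3 to 209 with DESeq2, 620 with the block and 252 without SI replicate 3, and in LI row >3 cells from 5 to 82, 692 and 497. Scaling by library size alone moved the median log2 fold change of genes of at least 10 CPM from 0.05 to -0.14 in SI row >3 and from 0.03 to -0.08 in LI row >3 cells, and no keratin's direction or call changed with it. Pairing by number between sites rests on the data, not on the labels. With the block and without SI replicate 3 together, chosen after seeing the data, 3 keratins were called at the SI border, 3 in LI row >3 cells and 5 in the interaction, *Krt19* (adjusted p = 0.0201) and *Krt7* (0.0279 and 0.0106) among them.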
